A study of Homo sapiens with 12 samples.

Results

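Aminoacyl-tRNA synthetases are the enzymes that join each amino acid to its transfer RNA. The family was taken by gene name and matched to the array by gene identifier. It was chosen with earlier results of these data known, so its shares are not those of an unselected list. It holds 35 genes, 19 for enzymes or subunits of the cytosol and 16 for enzymes of the mitochondria, of 19775 genes that have a probe set of their own on the array. A probe set is a group of short probes for 1 transcript, and the probe set with the highest mean log2 signal over the 12 arrays stood for its gene. Of the 35 genes, 32 had a probe set assigned to that gene alone, and all 32 passed the filter on dim signal, which asked for a group mean above 6.39, the median of all log2 values. These were 17 cytosolic and 15 mitochondrial genes. The probe sets of MARS1, QARS1 and TARS2 are also assigned to a microRNA gene in the platform annotation, so their signals were not used.

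RNA was taken from 2 stable HEK lines (HEK cells derive from human embryonic kidney), each grown in 5 µg/mL blasticidin and carrying a transgene that tetracycline switches on. The TRPM7 protein is an ion channel for divalent metals fused to a kinase. In the WT line the transgene encodes the wild-type channel, and in the mutant line it encodes a channel without its whole kinase domain, which the submitters describe as nonfunctional and use to control for tetracycline itself. Each line was left untreated or given 1 µg of tetracycline (volume not stated) for 72 hours, with 3 arrays in each of the 4 groups. Neither the clonal origin of a line nor the use of separate cultures for the 3 arrays is stated in the labels, so p-values reflect array-to-array spread that may be technical. All 7 HEK markers chosen (PAX2, NEFL, NEFM, VIM, KRT8, KRT18 and CDH2) lay above the median of all values, as did 1 of 3 measured blood markers (HBB) and 2 of 5 fibroblast and endothelial markers (COL1A1 and PECAM1). None of the 3 tested TRPM7 probe sets, of 5 on the array, was higher on the WT arrays labelled with tetracycline, and 1 (239484_at) was lower by a log2 difference of -2.00 ± 0.63 (SE, limma, adjusted p = 0.0411). Whether any of these probe sets reads the transgene is not given in the sources used here, so the groups below rest on their labels alone. These are bulk samples, in which fewer cells of a kind and less RNA per cell cannot be told apart.

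A synthetase first activates its amino acid with ATP and then transfers it to the matching tRNA, and it belongs to class I or class II by the fold of its catalytic domain. Most amino acids have separate nuclear genes for a cytosolic enzyme, which feeds the translation of nuclear messages, and a mitochondrial enzyme, which feeds the translation of a small set of respiratory chain subunits. GARS1 and KARS1 each serve both compartments, EPRS1 joins glutamyl and prolyl activities in 1 chain, and several cytosolic enzymes are held in the multi-synthetase complex. Many cytosolic synthetase genes are known targets of ATF4, a transcription factor of the integrated stress response that rises under amino acid shortage and other stresses.

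The promoter stretches below are shown because the ATF4-type element sat mostly in cytosolic members and included most of the genes that rose, and the E-box sat in most of the mitochondrial genes that fell. The sequences are from RefSeq (GRCh38.p14), in windows from 250 bases before to 50 bases after each annotated start. Of the 35 members, 30 have such a window (39 windows in all), and a gene was counted if any of its windows held the letters on either strand. No match of 1 motif overlapped a match of another in these windows. Each stretch of 30 bases is written 5′ to 3′ on the strand of the gene, and the capitals mark the match to TGATGNAA (TTNCATCA on the opposite strand).
AARS1, chr16:70289675-70289704, minus strand: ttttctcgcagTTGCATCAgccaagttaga
CARS1, chr11:3057407-3057436, minus strand: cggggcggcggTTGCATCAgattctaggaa
GARS1, chr7:30594834-30594863, plus strand: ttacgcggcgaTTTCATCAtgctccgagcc
IARS1, chr9:92293692-92293721, minus strand: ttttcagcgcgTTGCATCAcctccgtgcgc
TARS1, chr5:33440956-33440985, plus strand: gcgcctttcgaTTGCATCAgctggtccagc
NARS1, chr18:57621804-57621833, minus strand: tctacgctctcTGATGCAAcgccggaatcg

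The ATF4-type letters TGATGNAA were found in 7 of 16 cytosolic genes with a window (43.8%), in 1 of 14 mitochondrial genes (7.14%) and in 1217 of all 27305 genes with a window (4.46%). The 7 cytosolic genes were the 6 printed and MARS1, whose signal was not used, and the mitochondrial gene was YARS2. The same 8 letters, TTGCATCA or their reverse complement, made up the match in 6 of these 7 cytosolic genes, GARS1 being the other. Counted from the annotated start (0), the first base of the match lay at -2 in CARS1, -13 in IARS1, -33 in GARS1 and -187 in AARS1, and at 2 in TARS1 and 14 in NARS1. Among the genes that rose in the WT line (below), 3 of 4 held these letters, against 1 of 4 cytosolic genes that fell and 2 of 6 with a window that did not pass the threshold. SARS1 was the one that rose without them, and of the 4 it alone passed under all 22 alternative settings. AARS1, CARS1 and GARS1 did not pass with the arrays of the WT line alone or without all replicate 3 arrays. A match describes the letters only and is not evidence of binding.

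The E-box CACGTG, a palindrome bound by many factors of the basic helix-loop-helix family, was found in 3 of 14 mitochondrial genes (21.4%), in 1 of 16 cytosolic genes (6.25%) and in 2396 of all 27305 genes (8.77%). The 3 mitochondrial genes were CARS2, EARS2 and MARS2, which make up 3 of the 4 that fell in the WT line, and none of the 9 others with a window that were tested and did not pass held it. In these stretches, shown for that reason, the capitals mark CACGTG.
CARS2, chr13:110706500-110706529, minus strand: gctgggatgcaCACGTGcttcgctaacagg
EARS2, chr16:23557347-23557376, minus strand: agggagaagccCACGTGtgctattccatcc
MARS2, chr2:197705347-197705376, plus strand: tgcgcctctcaCACGTGctgtcagaacgcc
The matches began at -3 in CARS2, -15 in EARS2 and -11 in MARS2. The last motif, GCGCANGCG, the letters bound by NRF1, a factor of many nuclear genes for mitochondrial proteins, was found in 3 of 16 cytosolic genes (18.8%; FARSB, SARS1 and TARS1) and in 3 of 14 mitochondrial genes (21.4%; IARS2, MARS2 and PARS2), against 9.02% of all genes. The gene counts are small, and the members were not drawn at random, so the shares are given without a test. The share of all genes is over every gene with a window, whether or not its signal passed the filter.

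**Figure D1:**
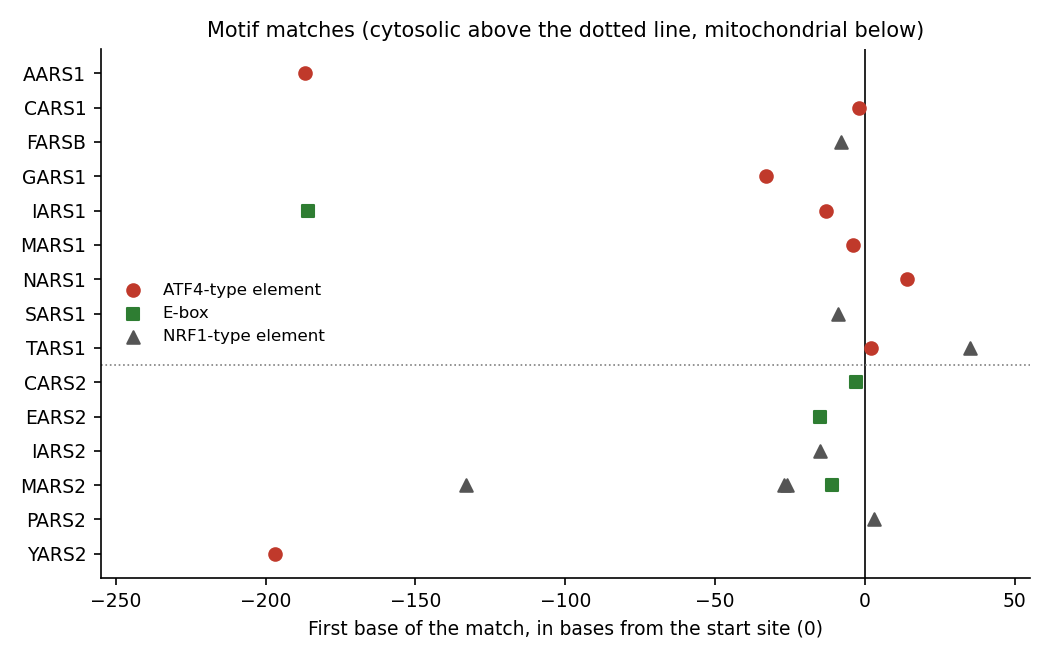
Position of each motif match in the members that hold one, in bases from the annotated start site (0) along the strand of the gene. Each symbol is 1 match. For TARS1 the GCGCANGCG match (35) and the ATF4-type match (2) are counted from different annotated starts. From the start used for the ATF4-type match, the GCGCANGCG match lies upstream, at -234. Matches of the ATF4-type element lie between -197 and 14, and those of the E-box in CARS2, EARS2 and MARS2 lie between -15 and -3.

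The first comparison asked how the enzymes changed in the WT line on the arrays labelled with tetracycline against those labelled untreated. The cytosolic enzymes went both ways: AARS1, CARS1, GARS1 and SARS1 rose, and FARSB, HARS1, IARS1 and RARS1 fell. No mitochondrial enzyme rose, and 4 fell: CARS2, EARS2, MARS2 and WARS2. Changes are log2 differences of signal, with the standard error of the fit and the p-value of limma adjusted by Benjamini-Hochberg over 29553 probe sets, and a gene was said to rise or fall if that p-value was under 0.05. By this rule 4 of 17 cytosolic enzymes (23.5%) rose and 4 (23.5%) fell, and 0 of 15 mitochondrial enzymes rose and 4 (26.7%) fell. Over all 13067 genes tested, 9.41% rose and 8.57% fell. The members with no overlap between the 2 groups were 4 cytosolic and 0 mitochondrial genes with the tetracycline arrays above, against 15.3% of all genes, and 3 cytosolic and 6 mitochondrial genes with them below, against 12.3% of all genes. The median change was -0.12 over the cytosolic enzymes, -0.36 over the mitochondrial enzymes and 0.032 over all genes tested. The classes also differed in signal. On the WT untreated arrays the median of the gene means was 12.33 over the cytosolic and 9.84 over the mitochondrial enzymes. The part of signal level in the class comparison was not tested. Of the mitochondrial enzymes, 13 of 15 changed in the negative direction, against 11 of 17 cytosolic enzymes and 47.4% of all genes. These counts moved with single arrays. Without WT tetracycline replicate 2 or 3, 2 cytosolic and 2 mitochondrial enzymes fell, against 4.38% and 4.46% of all genes, in that order. Without WT untreated replicate 1 or 3, 2 cytosolic enzymes fell, against 6.49% and 4.96% of all genes.

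**Figure D2:**
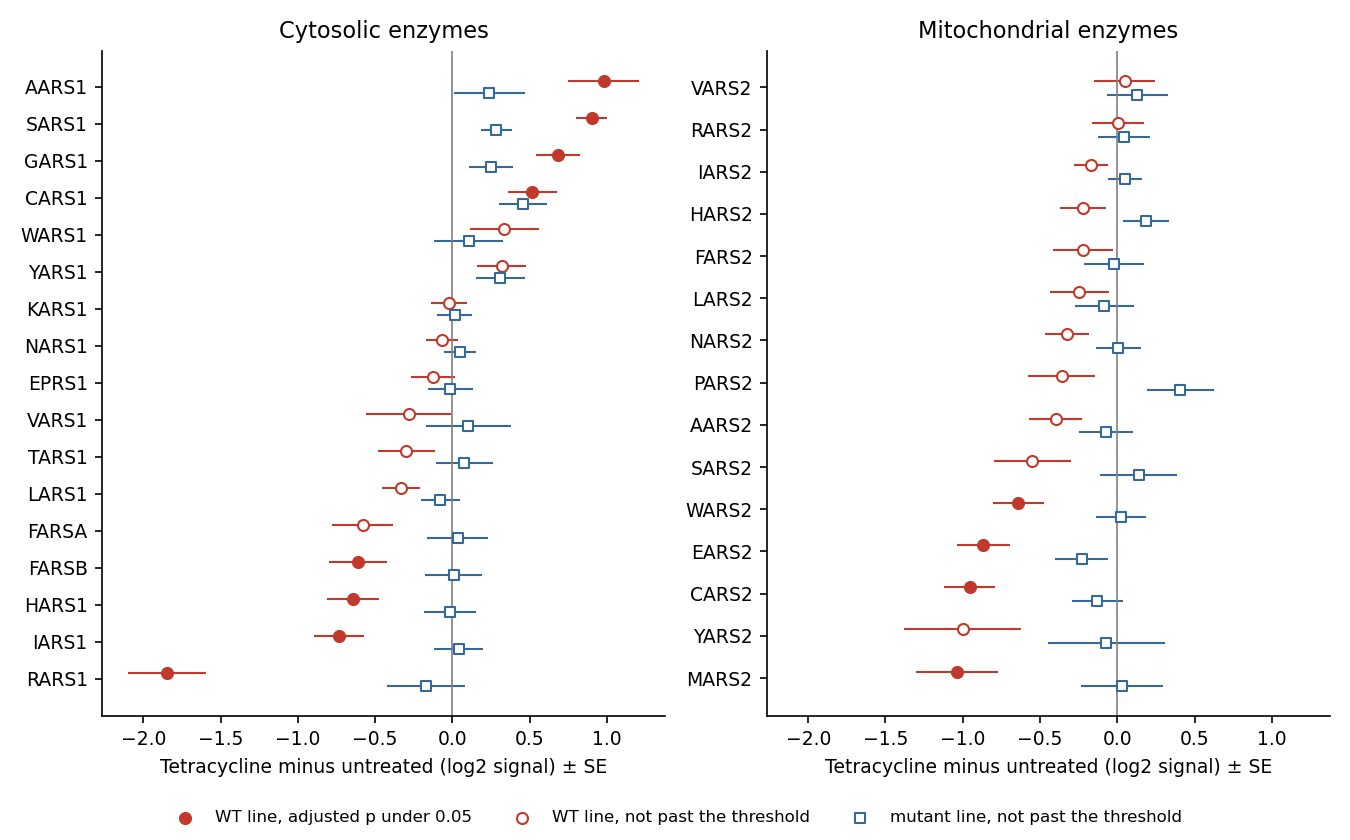
Log2 change of signal with tetracycline for each of the 32 measured enzymes in the WT line (circles, filled where the adjusted p is under 0.05) and in the mutant line (squares), with bars for the standard error of the fit. In the WT line the cytosolic enzymes spread from -1.85 to 0.98 and the mitochondrial enzymes from -1.04 to 0.05, while in the mutant line no enzyme passed the threshold.

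SARS1 (200802_at), the cytosolic seryl-tRNA synthetase, gave log2 signals of 12.53, 12.42 and 12.41 on the WT untreated arrays and 13.41, 13.26 and 13.39 with tetracycline. On the mutant arrays it gave 12.34, 12.47 and 12.35 untreated and 12.72, 12.74 and 12.57 with tetracycline. The treated arrays lay above the untreated ones in both lines with no overlap, and the 3 WT arrays with tetracycline were the highest of all 12. The change in the WT line was 0.90 ± 0.10 (SE, n = 3 and 3, adjusted p = 0.000183), and it passed under all 22 alternative settings tried.

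AARS1 (201000_at), the cytosolic alanyl-tRNA synthetase, gave 10.88, 11.62 and 11.30 on the WT untreated arrays, 11.68, 12.40 and 12.65 on those with tetracycline, 11.40, 11.34 and 11.21 on the mutant untreated arrays and 11.74, 11.67 and 11.26 on the mutant arrays with tetracycline. The lowest treated WT array, replicate 1, lay just above the highest untreated one, and the mutant groups overlapped. The change in the WT line was 0.98 ± 0.23 (adjusted p = 0.0102). When WT tetracycline replicate 3 was left out it was 0.78 (adjusted p = 0.0529). AARS1 also did not pass with the arrays of the WT line alone (adjusted p = 0.0654) or without all replicate 3 arrays (adjusted p = 0.166).

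GARS1 (208693_s_at), the glycyl-tRNA synthetase of both compartments, gave 12.32, 11.84 and 12.08 on the WT untreated arrays, 12.98, 12.59 and 12.73 on those with tetracycline, 12.42, 12.32 and 12.19 on the mutant untreated arrays and 12.65, 12.63 and 12.40 on the mutant arrays with tetracycline. All treated WT arrays lay above all untreated ones, and the mutant groups overlapped by a narrow margin. The change in the WT line was 0.68 ± 0.14 (adjusted p = 0.00541), and it passed with each single array left out. It did not pass with the arrays of the WT line alone (adjusted p = 0.0530) or without all replicate 3 arrays (adjusted p = 0.0903).

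CARS1 (212971_at), the cytosolic cysteinyl-tRNA synthetase, gave 12.01, 12.06 and 11.74 on the WT untreated arrays, 12.70, 12.47 and 12.19 on those with tetracycline, 11.59, 11.52 and 11.22 on the mutant untreated arrays and 12.03, 11.98 and 11.69 on the mutant arrays with tetracycline. The treated arrays lay above the untreated ones in each line with no overlap. The change was 0.52 ± 0.16 in the WT line (adjusted p = 0.0366) and 0.46 ± 0.16 in the mutant line, where it did not pass (adjusted p = 1.00). The call in the WT line was lost, with adjusted p from 0.0509 to 0.132, when WT untreated replicate 1 or 3, WT tetracycline replicate 1 or 2, mutant untreated replicate 2 or mutant tetracycline replicate 2 was left out.

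RARS1 (201330_at), the cytosolic arginyl-tRNA synthetase of the multi-synthetase complex, gave 12.79, 12.38 and 13.48 on the WT untreated arrays and 11.60, 10.82 and 10.69 on those with tetracycline. On the mutant arrays it gave 12.77, 13.08 and 12.99 untreated and 12.58, 12.94 and 12.81 with tetracycline. The 3 WT arrays with tetracycline were the lowest of all 12, and the mutant groups overlapped. The fall was -1.85 ± 0.25 (adjusted p = 0.000456), the most negative change of any measured synthetase, and it passed under all 22 alternative settings tried.

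IARS1 (204744_s_at), the cytosolic isoleucyl-tRNA synthetase of the same complex, gave 14.11, 14.18 and 14.02 on the WT untreated arrays, 13.71, 13.52 and 12.89 on those with tetracycline, 13.89, 13.93 and 13.74 on the mutant untreated arrays and 13.84, 14.03 and 13.81 on the mutant arrays with tetracycline. The treated WT arrays were the lowest of the 12, and the mutant groups overlapped. The fall in the WT line was -0.73 ± 0.16 (adjusted p = 0.00732), and it passed with each single array left out. It did not pass with the arrays of the WT line alone (adjusted p = 0.0591) or without all replicate 3 arrays (adjusted p = 0.0608).

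HARS1 (202042_at), the cytosolic histidyl-tRNA synthetase, gave 12.01, 11.67 and 12.05 on the WT untreated arrays, 11.72, 10.98 and 11.11 on those with tetracycline, 11.71, 11.72 and 11.69 on the mutant untreated arrays and 11.71, 11.70 and 11.65 on the mutant arrays with tetracycline. WT tetracycline replicate 1 lay above the lowest untreated WT array, so the WT groups overlapped. The fall was -0.64 ± 0.17 (adjusted p = 0.0187). It did not pass without WT untreated replicate 1 or 3 or WT tetracycline replicate 2 or 3, with adjusted p from 0.0567 to 0.0909.

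FARSB (223035_s_at), the beta subunit of the cytosolic phenylalanyl-tRNA synthetase, fell in the WT line (-0.61 ± 0.19, adjusted p = 0.0358), with 12.76, 12.35 and 12.61 on the untreated arrays, 12.51, 11.73 and 11.64 on those with tetracycline, 12.41, 12.50 and 12.58 on the mutant untreated arrays and 12.50, 12.52 and 12.49 on the mutant arrays with tetracycline. Its WT groups overlapped through tetracycline replicate 1. It was the least stable of these calls, lost in 12 of 22 alternative settings. Among these were the fits without WT untreated replicate 1 or 3, WT tetracycline replicate 2 or 3, mutant untreated replicate 2, mutant tetracycline replicate 1 or 2 (adjusted p from 0.0508 to 0.153 for these 7), and the fit of the mean of its probe sets (adjusted p = 0.466). FARSA, the alpha subunit, had a change of -0.58 ± 0.20 (adjusted p = 0.0559), which did not pass, and which passed without WT untreated replicate 2 (-0.82, adjusted p = 0.00641) or WT tetracycline replicate 1 (-0.72, adjusted p = 0.0152).

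The other 8 measured cytosolic enzymes did not pass. Beside FARSA, the smallest adjusted p was that of LARS1, the leucyl-tRNA synthetase of the complex (-0.33 ± 0.13, adjusted p = 0.0817), for which another probe set (217810_x_at) did fall (-0.42 ± 0.11, adjusted p = 0.0199). YARS1, the tyrosyl-tRNA synthetase, had 0.32 ± 0.16 (adjusted p = 0.191), and TARS1, the threonyl-tRNA synthetase, had -0.30 ± 0.18 (adjusted p = 0.286), which became -0.60 and passed without WT tetracycline replicate 1 (adjusted p = 0.000989). WARS1, VARS1, EPRS1, NARS1 and KARS1 had changes between -0.28 and 0.34.

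Among the mitochondrial enzymes, CARS2 (218153_at), the cysteinyl-tRNA synthetase, gave 10.44, 10.50 and 10.60 on the WT untreated arrays and 9.89, 9.31 and 9.48 on those with tetracycline. On the mutant arrays it gave 10.86, 10.90 and 10.94 untreated and 10.62, 11.02 and 10.67 with tetracycline. The WT arrays with tetracycline were the lowest of the 12, and the mutant groups overlapped. The fall in the WT line was -0.96 ± 0.17 (adjusted p = 0.00178), and it passed with each single array left out. It did not pass without all replicate 3 arrays (adjusted p = 0.0852).

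EARS2 (227374_at), the mitochondrial glutamyl-tRNA synthetase, gave 9.79, 9.53 and 9.26 on the WT untreated arrays, 8.54, 8.80 and 8.63 on those with tetracycline, 9.09, 9.08 and 9.20 on the mutant untreated arrays and 8.85, 8.88 and 8.96 on the mutant arrays with tetracycline. The treated arrays lay below the untreated ones in both lines with no overlap. The change was -0.87 ± 0.17 in the WT line (adjusted p = 0.00393) and -0.23 ± 0.17 in the mutant line, where it did not pass (adjusted p = 1.00). EARS2 was read by 2 further tested probe sets, which also fell in the WT line: 225993_at (-1.09 ± 0.27, adjusted p = 0.0139) and 1563796_s_at (-1.17 ± 0.37, adjusted p = 0.0411). The fall of 227374_at did not pass with the arrays of the WT line alone (adjusted p = 0.0611) or without all replicate 3 arrays (adjusted p = 0.0535).

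MARS2 (243529_at), the mitochondrial methionyl-tRNA synthetase, gave 8.70, 8.57 and 8.89 on the WT untreated arrays, 8.47, 7.24 and 7.34 on those with tetracycline, 8.98, 8.85 and 8.96 on the mutant untreated arrays and 9.10, 8.95 and 8.84 on the mutant arrays with tetracycline. WT tetracycline replicate 1 lay just under the lowest untreated WT array, while the other treated WT arrays lay far below. The fall was -1.04 ± 0.27 (adjusted p = 0.0166). It did not pass without WT untreated replicate 3 or WT tetracycline replicate 2 or 3, with adjusted p from 0.0607 to 0.0784.

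WARS2 (222734_at), the mitochondrial tryptophanyl-tRNA synthetase, gave 10.00, 9.73 and 9.80 on the WT untreated arrays, 9.54, 9.07 and 8.99 on those with tetracycline, 9.87, 9.85 and 9.85 on the mutant untreated arrays and 9.88, 9.88 and 9.88 on the mutant arrays with tetracycline. The treated WT arrays were the lowest of the 12. The fall was -0.64 ± 0.16 (adjusted p = 0.0165). It did not pass without WT untreated replicate 1 or WT tetracycline replicate 2 or 3, with adjusted p from 0.0539 to 0.0674.

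The other 11 measured mitochondrial enzymes did not pass. The smallest adjusted p-values among them belonged to YARS2 (-0.9998 ± 0.38, adjusted p = 0.0849), AARS2 (-0.40, adjusted p = 0.132), NARS2 (-0.32, adjusted p = 0.139) and SARS2 (-0.55, adjusted p = 0.145), the tyrosyl, alanyl, asparaginyl and seryl enzymes. YARS2 passed without WT untreated replicate 1 (-1.42, adjusted p = 0.0199) or WT tetracycline replicate 1 (-1.33, adjusted p = 0.0164), and SARS2 without WT tetracycline replicate 1 (-0.91, adjusted p = 0.00184). PARS2, FARS2, HARS2, IARS2, LARS2, RARS2 and VARS2 had changes between -0.36 and 0.05.

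**Figure D3:**
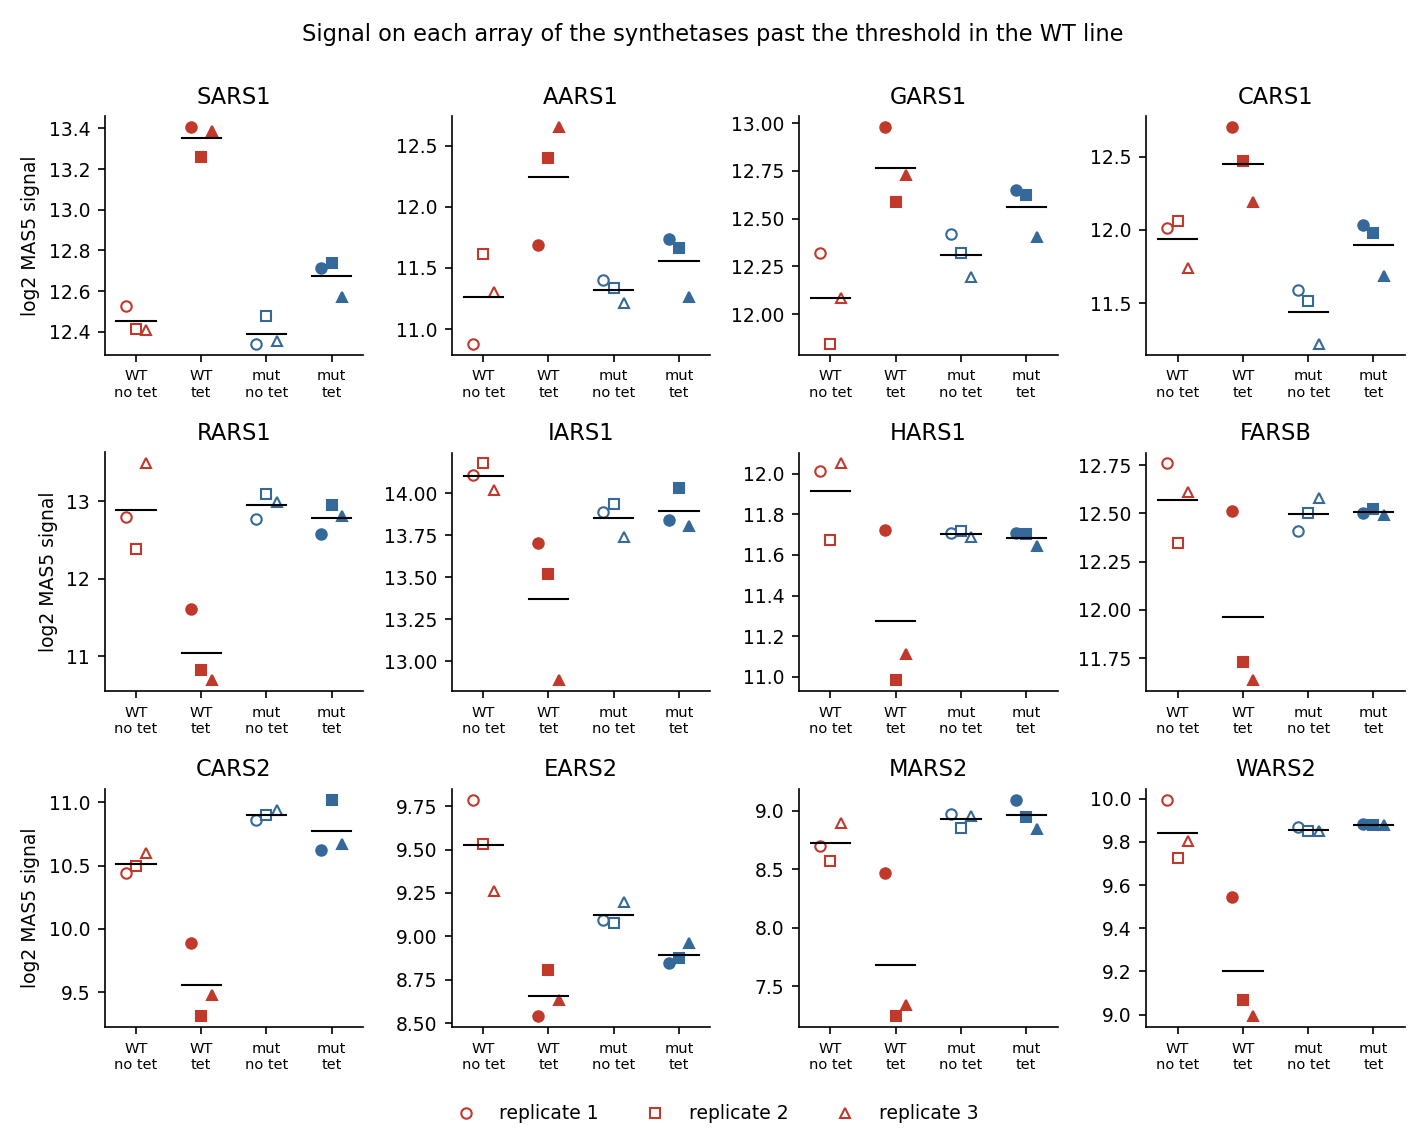
Log2 signal on each of the 12 arrays for the 12 synthetases that passed the threshold in the WT line, by group, with marker shape for the replicate number, filled markers for tetracycline and a line for the group mean. WT tetracycline replicate 1 is the treated array nearest the untreated mean for RARS1, IARS1, HARS1, FARSB, CARS2, MARS2 and WARS2.

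WT tetracycline replicate 1 lay nearest the untreated mean, of the 3 treated WT arrays, for 4 of 4 cytosolic enzymes that fell, for 3 of 4 mitochondrial enzymes that fell (all but EARS2) and for 1 of 4 cytosolic enzymes that rose (AARS1). On the arrays as a whole, the mean deviation of the 15 mitochondrial enzymes from their 12-array means was 0.17, 0.15 and 0.22 on the WT untreated arrays and -0.0077, -0.37 and -0.48 on those with tetracycline. The mean deviation of the 17 cytosolic enzymes was 0.086, -0.12 and 0.10 on the WT untreated arrays and 0.14, -0.21 and -0.18 on those with tetracycline. The treated WT arrays thus lay below the untreated ones with no overlap in the mitochondrial mean and overlapped them in the cytosolic mean. The cytosolic minus mitochondrial value was -0.081, -0.26 and -0.12 on the WT untreated arrays and 0.15, 0.16 and 0.31 on those with tetracycline. In the mutant line it was -0.11, 0.024 and -0.092 untreated and -0.060, 0.082 and 0.012 with tetracycline, so the mutant groups overlapped. All 3 treated WT arrays lay above all untreated WT arrays in this value. With quantile normalization the same held, at 0.069, 0.062 and 0.14 treated against -0.17, -0.33 and -0.19 untreated. On that scale the mutant arrays gave 0.020, 0.092 and -0.011 untreated and 0.068, 0.18 and 0.062 with tetracycline. There the treated arrays of the WT and mutant lines overlapped. These means are descriptions over genes that share the arrays, with no test.

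**Figure D4:**
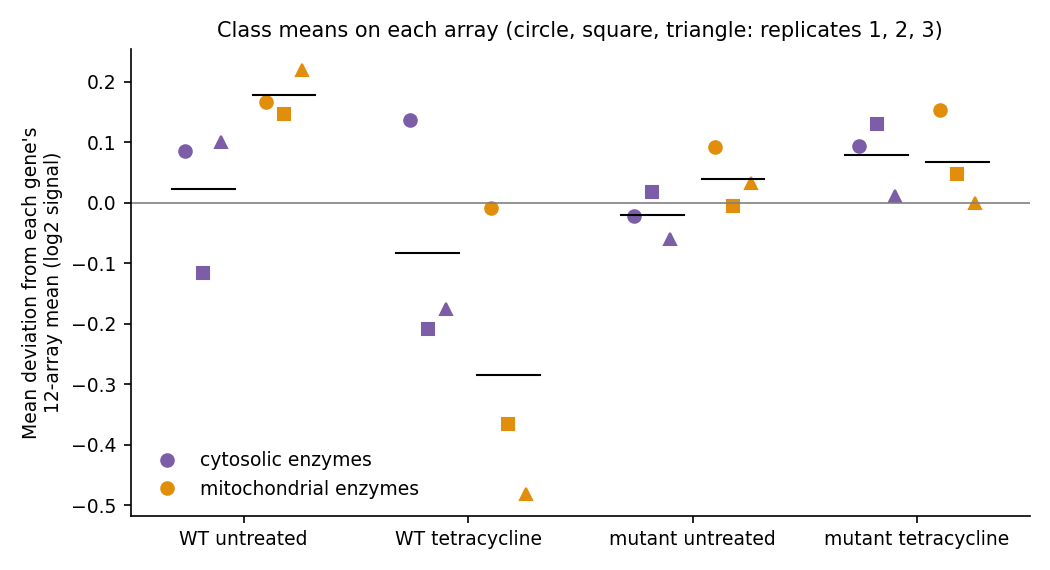
Mean deviation of log2 signal from each gene's 12-array mean, over the 17 cytosolic and the 15 mitochondrial enzymes, on each array by group; marker shape gives the replicate number. With tetracycline in the WT line the mitochondrial means are -0.0077, -0.37 and -0.48, all below the untreated values of 0.15 to 0.22.

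Pairs of a cytosolic and a mitochondrial enzyme for the same amino acid were set side by side for 14 amino acids, in 15 pairs because the cytosolic enzyme of phenylalanine has a pair of subunits, each set against FARS2. EPRS1 stands in both the glutamate and the proline pair. In the WT line the cytosolic change was above the mitochondrial one in 8 pairs and below it in 7, with a median difference of 0.23. The widest positive gap was that of cysteine, 1.47, where CARS1 rose and CARS2 fell. Serine (1.45), alanine (1.38), tyrosine (1.32) and tryptophan (0.98) followed, with SARS1 and AARS1 past the threshold upward and WARS2 downward. Arginine was the reverse, at -1.85: RARS1 fell and RARS2, the mitochondrial enzyme, had a change of 0.0047 ± 0.17 (adjusted p = 0.989). Isoleucine (-0.56), histidine (-0.42) and phenylalanine (-0.39 for FARSB) also had the cytosolic enzyme lower. IARS1, HARS1 and FARSB were past the threshold, and IARS2, HARS2 and FARS2 were not (-0.17, -0.22 and -0.22). In the mutant line the cytosolic change was above in 10 of 15 pairs, with a median difference of 0.043. The difference within a pair was not tested.

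**Figure D5:**
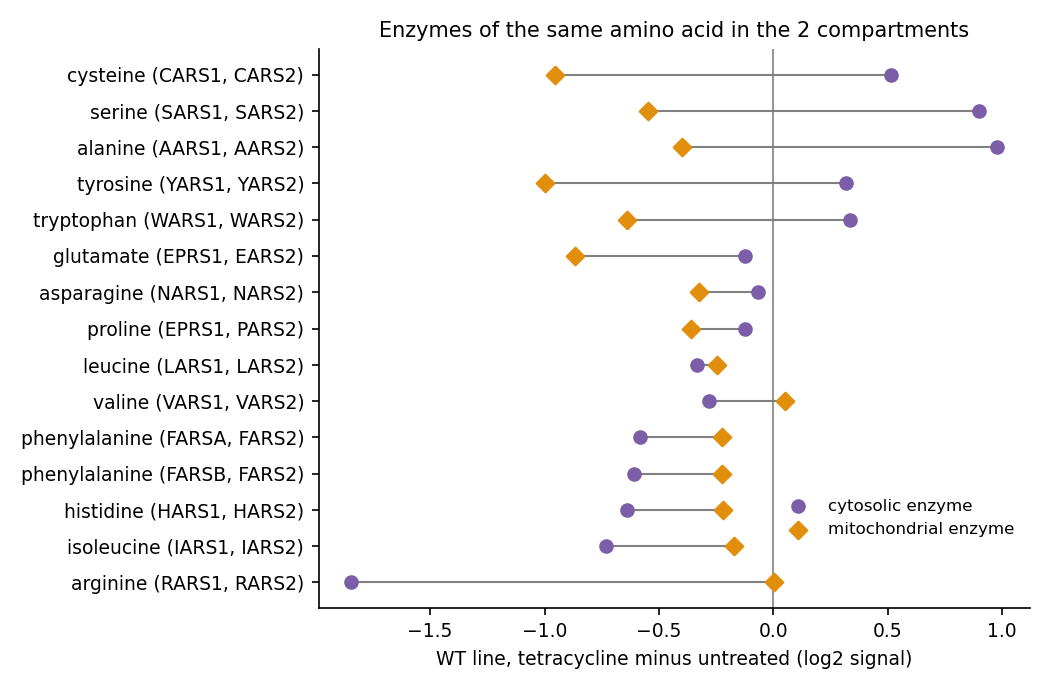
Log2 change with tetracycline in the WT line for the cytosolic (circle) and mitochondrial (diamond) enzyme of each of 15 pairs, ordered by the difference. The pairs run from cysteine, with CARS1 at 0.52 and CARS2 at -0.96, to arginine, with RARS1 at -1.85 and RARS2 at 0.0047.

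By structural class, 1 of 17 class I enzymes rose and 6 fell in the WT line, and 3 of 16 class II enzymes rose and 2 fell, with EPRS1 counted in both. Over all genes tested, 9.41% rose and 8.57% fell, with a median change of 0.032, and the counts and medians of these small subgroups stand beside those values. Within the mitochondria, the 4 enzymes that fell were all among the 9 of class I (median change -0.64), and none of the 6 of class II passed (median -0.34, all 6 negative). In the cytosol, 1 of 8 class I enzymes rose and 2 fell, and 3 of 10 class II enzymes rose and 2 fell. Of the 5 measured catalytic members of the multi-synthetase complex (EPRS1, LARS1, IARS1, KARS1 and RARS1), 0 rose and 2 fell (IARS1 and RARS1), all 5 were negative, and the median was -0.33. Of the 12 measured cytosolic enzymes outside the complex, 4 rose and 2 fell, 6 were positive, and the median was 0.13. Of the genes that serve both compartments, GARS1 rose, and KARS1 had a change of -0.022 ± 0.11 (adjusted p = 0.918). No difference between these classes was tested.

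Other probe sets of the members gave a check on the choice of probe set. Of 35 further probe sets, 24 were tested, in 18 members, and 22 had the same sign as the representative in the WT line. The exceptions belonged to TARS1 (0.51 ± 0.32, against -0.30) and RARS2 (-0.031, against 0.0047), and none of these passed. For the 12 enzymes that passed, all 8 further tested probe sets, in 6 genes, had the same sign, and 2 (both of EARS2) passed. Between the lines, 12 of the 24 other probe sets had the opposite sign to the representative in the untreated lines, and 9 of 24 with tetracycline.

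The mutant line shows the signals with tetracycline and the nonfunctional channel. No synthetase passed: 0 of 17 cytosolic and 0 of 15 mitochondrial enzymes, in a comparison in which 0% of all genes passed in either direction. At an unadjusted p under 0.05, 2 cytosolic enzymes (CARS1 and SARS1), 0 mitochondrial enzymes and 231 of 13067 genes were found by the same limma fit. The median change was 0.048 over the cytosolic enzymes, 0.024 over the mitochondrial enzymes and 0.016 over all genes. The groups did not overlap, with the treated arrays above, for 3 cytosolic enzymes (CARS1, SARS1 and WARS1) and 1 mitochondrial enzyme (WARS2), against 7.70% of all genes, and with them below for EARS2, against 4.83% of all genes. SARS1 had 0.28 ± 0.10, GARS1 0.25 ± 0.14, AARS1 0.24 ± 0.23 and YARS1 0.31 ± 0.16 (adjusted p = 1.00 for each). For RARS1 the value was -0.17 ± 0.25, for CARS2 -0.13 ± 0.17 and for MARS2 0.031 ± 0.27 (adjusted p = 1.00 for each).

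Whether the change in the WT line differed from that in the mutant line was tested as the difference of both changes. No synthetase passed, in a comparison in which 0.0765% of all genes passed upward and 0.0689% downward (41 of 29553 probe sets in all). At an unadjusted p under 0.05, 8 cytosolic and 5 mitochondrial enzymes were found, against 1991 of 13067 genes. The smallest adjusted p-values were those of RARS1 (-1.67 ± 0.36, adjusted p = 0.0750) and SARS1 (0.62 ± 0.14, adjusted p = 0.0891), followed by CARS2 (-0.83 ± 0.23, adjusted p = 0.134) and IARS1 (-0.77 ± 0.23, adjusted p = 0.151). CARS1, which rose in the WT line, had a difference of 0.059 ± 0.22 (adjusted p = 0.933). All 15 mitochondrial enzymes had a negative difference, from -1.07 for MARS2 to -0.039 for RARS2, with a median of -0.41 against 0.0066 over all genes, of which 49.5% were negative. The groups of WARS2 overlapped in neither line, with the treated arrays below in WT and above in the mutant (0.024 ± 0.16), and it had a difference of -0.66 ± 0.23 (adjusted p = 0.217).

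This comparison turned on WT tetracycline replicate 1. Without that array, 3.64% of all genes passed upward and 6.15% downward, and 2 cytosolic enzymes passed upward, 5 cytosolic downward and 4 mitochondrial downward. AARS1 (1.02 ± 0.26, adjusted p = 0.0245) and SARS1 (0.59 ± 0.15, adjusted p = 0.0223) were those upward. RARS1 (-1.96 ± 0.31, adjusted p = 0.00150), FARSB, IARS1, HARS1 and TARS1 were the cytosolic ones downward, and the mitochondrial ones were MARS2 (-1.46 ± 0.25, adjusted p = 0.00284), CARS2, SARS2 and WARS2. With arrays weighted by their own spread, the cytosolic genes were the same 2 upward and FARSA, FARSB, HARS1, IARS1 and RARS1 downward, and the mitochondrial genes were the same 4, against 3.74% of all genes upward and 5.37% downward.

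The lines were also compared without treatment. VARS1, the cytosolic valyl-tRNA synthetase, was lower in the WT line (-0.96 ± 0.28, adjusted p = 0.0329), and 2 mitochondrial enzymes were higher in it, RARS2 by 0.86 ± 0.17 (adjusted p = 0.00550) and AARS2 by 0.56 ± 0.17 (adjusted p = 0.0463). VARS1 gave 11.05, 10.22 and 11.19 on the WT untreated arrays and 11.77, 11.82 and 11.76 on the mutant untreated arrays, and RARS2 gave 11.27, 11.33 and 11.18 against 10.50, 10.42 and 10.27. The lines did not overlap in either gene, and WT untreated replicate 2 was far below the others for VARS1. In all, 0 of 17 cytosolic enzymes were higher and 1 lower, and 2 of 15 mitochondrial enzymes were higher and 0 lower, against 5.84% of all genes higher and 6.82% lower. EPRS1 was not among them by its brightest probe set (0.26, adjusted p = 0.270), while another of its probe sets (200841_s_at) was lower in the WT line (-0.86 ± 0.21, adjusted p = 0.0161). RARS2 passed under all 22 alternative settings. VARS1 did not pass without WT untreated replicate 2 (-0.66, adjusted p = 0.123) or any 1 of the 3 mutant untreated arrays (adjusted p from 0.0835 to 0.104). AARS2 did not pass without WT untreated replicate 1 or 3, WT tetracycline replicate 2 or any 1 of the 6 mutant arrays (adjusted p from 0.05001 to 0.165).

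With tetracycline in both lines, AARS1 (0.69 ± 0.23, adjusted p = 0.0368), CARS1 (0.55, adjusted p = 0.0182), SARS1 (0.68 ± 0.10, adjusted p = 0.000463) and YARS1 (0.48, adjusted p = 0.0381) were higher in the WT line. RARS1 (-1.74 ± 0.25, adjusted p = 0.000385), VARS1 (-1.34), FARSA (-1.15), FARSB (-0.54), IARS1 (-0.52) and LARS1 (-0.43) were lower. Among mitochondrial enzymes, RARS2 was higher (0.82) and MARS2 (-1.28), CARS2 (-1.21), SARS2 (-0.93), PARS2 (-0.80) and WARS2 (-0.68) were lower. The counts were 4 higher and 6 lower of 17 cytosolic enzymes and 1 higher and 5 lower of 15 mitochondrial enzymes, against 13.3% of all genes higher and 14.9% lower. FARSA, RARS1, SARS1, VARS1, CARS2 and RARS2 passed under all 22 alternative settings. Some of these values depended on the probe set. With the mean of all its probe sets CARS1 was 0.046 (adjusted p = 0.862), YARS1 was 0.12 (adjusted p = 0.749) and FARSB was -0.62 (adjusted p = 0.203). The other tested probe sets of CARS1 (-0.064 and -0.35) and YARS1 (-0.24) had the opposite sign and did not pass. The brightest probe set of EPRS1 gave 0.14 (adjusted p = 0.485), while 200841_s_at (-0.86 ± 0.21, adjusted p = 0.00798) and 200842_s_at (-0.68 ± 0.15, adjusted p = 0.00420) were lower in the WT line. Without 1 array each, the counts of cytosolic enzymes that were higher ran from 1 (without WT tetracycline replicate 2 or mutant tetracycline replicate 3) to 4, with 2 without WT tetracycline replicate 3, mutant untreated replicate 2 or mutant tetracycline replicate 1. For these fits the share of all genes that passed was not computed. Single arrays left out ended the other calls as follows. AARS1 was lost without WT tetracycline replicate 2 or 3, mutant untreated replicate 2 or any 1 of the 3 mutant arrays with tetracycline (adjusted p from 0.0508 to 0.158). YARS1 was lost without WT tetracycline replicate 2 or 3, mutant untreated replicate 1 or 2 or mutant tetracycline replicate 1 or 3 (0.0511 to 0.168). CARS1 was lost without WT tetracycline replicate 2 or mutant tetracycline replicate 3 (0.0521 and 0.0830). FARSB was lost without WT untreated replicate 3, WT tetracycline replicate 2 or 3 or any 1 of the 6 mutant arrays (0.0506 to 0.168). IARS1 was lost without WT tetracycline replicate 3 or mutant tetracycline replicate 1 or 2 (0.0580 to 0.102), and LARS1 without mutant tetracycline replicate 3 (0.0843). SARS2 was lost without WT tetracycline replicate 2 or 3 or mutant tetracycline replicate 2 (0.0529 to 0.0601), and PARS2 without mutant tetracycline replicate 3 (0.0533). These comparisons share arrays with those above and are not independent of them.

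A measure of RNA quality moved with the line. For the actin control probe sets, the 3′/5′ signal ratio (log2) was 1.05 ± 0.27 (SD, n = 6) on the WT arrays and 0.26 ± 0.026 (SD, n = 6) on the mutant arrays (2-sided exact permutation test, p = 0.00217, the smallest this design can give). Within the WT line it was 1.11 ± 0.23 with tetracycline and 0.99 ± 0.33 untreated (n = 3 and 3, exact p = 0.600, where 0.100 is the smallest possible). Its part in the differences between lines was not tested. Another control, the ThrX poly-A probe set, was lowest on replicate 3 in each group. Its log2 signal was 9.64, 9.06 and 6.45 on the WT untreated arrays, 9.09, 9.23 and 7.55 on those with tetracycline, 8.72, 8.85 and 8.16 on the mutant untreated arrays and 8.58, 8.78 and 8.39 on the mutant arrays with tetracycline. Without the replicate 3 arrays, which leaves 2 in each group, only SARS1 rose (adjusted p = 0.0278) and only RARS1 fell (adjusted p = 0.0419) among the synthetases in the WT line, and the part of this control in the results was not tested. The share of all genes that passed without these arrays was not computed. The median SD of a probe set within a group was 0.299 and 0.326 in the WT groups and 0.174 and 0.190 in the mutant groups, untreated and treated. The fit used 1 spread per probe set over all 4 groups, so standard errors of WT changes also draw on the mutant arrays, which spread less. Those of mutant changes likewise draw on the WT arrays, which spread more. That limit applies to the absence of calls in the mutant line as well. With the WT arrays alone, the limma adjusted p was 0.132 for WARS2, 0.119 for HARS1 and 0.115 for MARS2. Only SARS1, RARS1 and CARS2 passed in that fit, which also has fewer arrays and for which the share of all genes was not computed.

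Other genes of tRNA charging were taken from a list of 26, of which 19 had a probe set of their own, all tested. In the WT line 0 rose and 4 fell, against 9.41% and 8.57% of all genes, with a median of -0.25 against 0.032. DTD2 (-1.64 ± 0.25, adjusted p = 0.000833) and DTD1 (-0.53 ± 0.15, adjusted p = 0.0286) fell, and both are deacylases that clear wrongly charged tRNA. TRNT1, which adds the CCA end that every synthetase charges, fell (-1.06 ± 0.19, adjusted p = 0.00199), and TSFM, the mitochondrial elongation factor that recycles TUFM, fell (-0.83 ± 0.14, adjusted p = 0.00133). None of the 19 passed in the mutant line or in the difference of the changes. Without treatment, AIMP1, a scaffold of the multi-synthetase complex (0.57), QRSL1, a subunit of the mitochondrial amidotransferase that makes glutaminyl-tRNA (0.53), and PTRHD1 (0.78) were higher in the WT line, and 0 were lower. That is 3 and 0 of 19, against 5.84% and 6.82% of all genes. With tetracycline in both lines, AIMP1 (0.58), QRSL1 (0.70), PTRHD1 (0.65) and EEF1D (0.38) were higher in the WT line, and DTD2 (-1.30), TRNT1 (-1.05), GATB (-0.95), MTFMT (-0.62) and TUFM (-0.42) were lower. That is 4 and 5 of 19, against 13.3% and 14.9% of all genes.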

How the data were processed

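Total RNA (5 µg per sample) from 12 samples was labelled and scanned on 12 Affymetrix arrays, 3 in each of 4 groups set by the labels. The deposited values are MAS5 signal intensities of 54675 probe sets on a linear scale, MAS5 being named in the submitters' processing notes; the settings are not given in the sources used here. Here, signals under 1 (0.337% of values) were set to 1 and log2 was taken, with no further scaling. The 41097 probe sets with 1 gene symbol were updated by gene identifier, and the 1801 with several symbols and 11777 with none were not used for gene names.

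Probe sets whose highest group mean exceeded the median of all values were fitted with limma 3.58.1 in R 4.3.3 (1 mean per group, eBayes with a mean-variance trend), with Benjamini-Hochberg adjustment over the 29553 tested. The number of arrays limits the precision. On simulated data for the WT comparison (29553 probe sets), 67, 67 and 66 probe sets were given changes of 0.5, 1 and 2 (log2). Of these, 5.97%, 32.8% and 78.8% were found, in that order, and 4.88% of calls were false. The real WT comparison called 5005 probe sets, and the Benjamini-Hochberg cut-off depends on how many probe sets change. These shares therefore describe the simulated setting only and are not estimates for the real comparison. All array values are printed for the members past the threshold in the WT line, up to 7 cytosolic (CARS1, the eighth, is given likewise) and 6 mitochondrial by smallest p. Of those not past it, values are given for up to 4 per class by smallest p, and members past it elsewhere are named. The members, gene lists and motifs were chosen with earlier results of these data known. Alternatives were filters, offset, quantile normalization, fit options, probe set choice and left-out arrays. Figures were drawn with matplotlib 3.10.9 and exact tests run with scipy 1.17.1.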

Additional observations from a re-analysis of the deposited data

How the results depend on the processing

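Over 22 settings, the members' counts and medians moved as follows. Where the share of all genes that passed in a fit is not given above, it was not computed. Counts under such a setting cannot be set against that share, so fewer calls there may hold for all genes alike. In the WT line, cytosolic enzymes that rose (4) and fell (4) and mitochondrial enzymes that fell (4) numbered 1, 1 and 1 with the arrays of the WT line alone, and 1, 1 and 0 without all replicate 3 arrays. Those kept with the arrays of the WT line alone were SARS1, RARS1 and CARS2. The cytosolic count that fell was 2 with no mean-variance trend. With 1 array left out these 3 counts ran from 3 to 4, 2 to 6 and 2 to 6, and the cytosolic median from -0.27 to -0.028. For the difference of the changes, single arrays left out gave 0 to 2 cytosolic upward, 0 to 5 cytosolic downward and 0 to 4 mitochondrial downward, with a cytosolic median from -0.25 to -0.051. Array weights gave 2, 5 and 4. Between untreated lines, the cytosolic count higher (0) was 2 with the filter at the 75th percentile or only the groups compared, 1 with an offset of 16 or array weights, and 0 to 3 with 1 array left out. The cytosolic count lower (1) was 0 with no trend or without all replicate 3 arrays, and 0 to 2 with 1 array left out. The cytosolic median (0.075) ran from 0.075 to 0.21 and was -0.064 with the mean of all probe sets. The mitochondrial count higher (2) was 1 with no filter, no trend, only the groups compared or no replicate 3 arrays, and 1 to 2 with 1 array left out. With tetracycline, the cytosolic count higher (4) was 2 with no filter, no trend, only the groups compared, the mean of all probe sets or no replicate 3 arrays, 1 with quantile normalization, and 1 to 4 with 1 array left out. The cytosolic count lower (6) was 3 with no trend or without replicate 3 arrays (4 to 8 with 1 array left out). The mitochondrial count lower (5) was 1 without replicate 3 arrays (4 to 6 with 1 left out). The cytosolic median (0.14) was 0.0065 with quantile normalization, -0.015 with the mean of all probe sets, and -0.013 to 0.22 with 1 array left out. The cause of these moves was not tested.

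Sign turned, in the WT line, only for 7 members whose change did not pass. With 1 array left out KARS1 ran from -0.085 to 0.067 (0.0094 with array weights), NARS1 from -0.14 to 0.020, VARS1 from -0.58 to 0.093, RARS2 from -0.12 to 0.19 and VARS2 from -0.091 to 0.26. TARS1 was 0.10 with the mean of all probe sets, and FARS2 was 0.071 without replicate 3 arrays. Deviations of same-numbered arrays from their group means had correlations of 0.253, 0.240 and 0.042 in the WT line. They were 0.137, 0.026 and 0.210 in the mutant line and ran from -0.0022 to 0.081 between lines. The labels do not state that the numbers are pairs, and the main fit did not use them. A fit with the replicate number as a block gave 4 cytosolic enzymes higher, 6 lower (FARSA, adjusted p = 0.0357, and LARS1, adjusted p = 0.0459, being added) and 4 mitochondrial lower in the WT line, and 2 cytosolic higher between untreated lines. The share of all genes that passed in the block fit was not computed.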
